A study of Homo sapiens with 8 samples.

Results

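The genes described here are 10 regulators of the mitochondrial and death receptor routes to apoptosis. They comprise the prosurvival BCL2 relatives BCL2, BCL2L1, BCL2A1 and MCL1, the effectors BAX and BAK1, and the BH3-only genes BBC3 and PMAIP1. The others are the inhibitor of apoptosis (IAP) genes BIRC2 and BIRC3. The 10 genes were chosen by name, each through its Entrez identifier, from 17131 genes in the table, and all 10 were found. The cells were HaCaT, an immortalised line of human keratinocytes, labelled wild type in genotype, and every library came from cells given M5, a cocktail of oncostatin M, TNF-α, IL-1α, IL-17A and IL-22 that models the psoriatic epidermis, with each of the 5 cytokines at 10 ng/mL for 24 h. One arm of the study also received OTS514, an inhibitor of the kinase TOPK encoded by PBK, at 10 nM from 12 h before M5. RNA sequencing gave 4 libraries titled M5_O5 and 4 titled M5. By its title M5_O5 would be the arm with OTS514, but the treatment field lists the inhibitor for M5 and no treatment for M5_O5, so every direction below is given between titles and exchanges its meaning if the entered treatment holds. Unstimulated cells were not analysed here, and since nothing in the labels says that replicates came from separate cultures, p-values measure only the spread between these libraries.

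Mitochondrial apoptosis turns on protein contacts within the BCL2 family. BAX and BAK1 form pores in the outer mitochondrial membrane, the prosurvival members bind and hold them, and BH3-only proteins occupy the prosurvival members or activate the effectors directly. NOXA, the protein of PMAIP1, binds MCL1 and the BCL2A1 protein preferentially, whereas PUMA, the protein of BBC3, binds all the prosurvival members. BIRC2 and BIRC3 encode cIAP1 and cIAP2, ubiquitin ligases that act at the TNF receptor, and BIRC3 and BCL2A1 are well-known targets of NF-κB. In the epidermis these genes set how readily keratinocytes die during stress and inflammation.

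Total counts lay between 13708046 and 16922673 per library, and the smallest belonged to M5 replicate 1. All 10 keratinocyte markers were detected, with summed levels of 19098 to 20887 CPM (counts per 1000000 of the TMM-scaled library) in M5_O5 and 23934 to 26278 in M5. Of these markers 7 were lower in M5_O5 and none was higher (adjusted p under 0.05), beside 17.6% and 19.5% of all genes tested. Of the leukocyte markers PTPRC had no count in any library. CD14, of the same list, had 30.8 to 36.4 CPM in M5_O5 and 35.2 to 39.0 in M5. Of the endothelial markers PECAM1 had at most 1 count. Summed levels were 31.1 to 36.7 CPM in M5_O5 and 35.6 to 39.9 in M5 for leukocyte markers, mostly from CD14. For melanocyte markers they were 1.90 to 2.62 and 1.45 to 1.90, and for fibroblast markers 31.1 to 35.3 and 42.1 to 56.8. Most of the fibroblast sum came from COL1A1, at 30.4 to 34.8 CPM in M5_O5 and 40.5 to 54.5 in M5. COL1A2 and COL3A1 had no count in M5_O5, and 1 to 14 and 2 to 5 counts per library in M5. Endothelial markers summed to 3.10 to 3.79 CPM in M5_O5, mostly from CDH5, and to 0.25 to 1.05 in M5. In M5, CDH5 had 0.19 to 0.46 CPM and VWF 0.06 to 0.78. The part of all these markers in the results was not tested. Of 14 proliferation genes, all 14 were higher in M5_O5, beside 19.5% of all genes tested. Their summed levels were 263 to 283 CPM in M5_O5, 99.7 to 109 in M5 replicates 2 to 4 and 212 in M5 replicate 1. PBK, itself on that list, lay at 2.25 to 3.60 CPM in M5_O5, at 0.59 to 0.99 in M5 replicates 2 to 4 and at 2.63 in M5 replicate 1. M5 replicate 1 therefore stood apart from its group, and values without it are given for members whose call it changed or whose difference it moved by over 1.5 times.

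The 250 bases before the annotated start are shown for PMAIP1 and BCL2A1, which were both higher in M5_O5, and for BIRC3, which carries the matches to the NF-κB (κB) consensus but did not pass the test. They are RefSeq sequences of GRCh38.p14, written 5′ to 3′ on the strand of the gene, and 9 of the 10 genes had an entry. Capitals mark motif matches, found on either strand.
PMAIP1, chr18:59899746-59899995, plus strand: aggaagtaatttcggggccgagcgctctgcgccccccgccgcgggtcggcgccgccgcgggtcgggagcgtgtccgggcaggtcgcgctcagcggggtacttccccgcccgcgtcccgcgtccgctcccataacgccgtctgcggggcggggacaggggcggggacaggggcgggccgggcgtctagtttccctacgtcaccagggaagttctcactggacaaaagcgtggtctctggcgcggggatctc
BCL2A1, chr15:79971197-79971446, minus strand: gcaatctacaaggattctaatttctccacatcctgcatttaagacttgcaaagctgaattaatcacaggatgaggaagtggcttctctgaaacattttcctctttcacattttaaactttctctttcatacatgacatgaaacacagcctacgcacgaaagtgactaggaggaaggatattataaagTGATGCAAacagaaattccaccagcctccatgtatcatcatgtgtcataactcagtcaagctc
BIRC3, chr11:102317234-102317483, plus strand: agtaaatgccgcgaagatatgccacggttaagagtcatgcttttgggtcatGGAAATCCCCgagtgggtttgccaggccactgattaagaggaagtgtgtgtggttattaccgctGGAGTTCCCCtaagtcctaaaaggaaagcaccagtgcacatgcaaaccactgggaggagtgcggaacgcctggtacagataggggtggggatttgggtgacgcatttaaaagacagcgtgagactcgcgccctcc
BIRC3 held 2 κB matches, at bases -199 to -190 and -135 to -126 from the start. BCL2A1 held 1 match to TGATGNAA, the composite site recognised by C/EBP and ATF4 dimers, at bases -63 to -56. In PMAIP1 none of these motifs, nor TGACGTCA, was found, and these letters alone say nothing of the factors. Among 35116 such windows, 5.21% held a κB match, 3.14% TGATGNAA and 1.65% TGACGTCA, the cAMP response element, so matches of this kind are not rare.

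The remaining sequences mark the splice choice that gives MCL1 and BCL2L1 their long and short forms. The long proteins are prosurvival, and the short ones, MCL-1S and BCL-xS, are known to promote death. Each line shows 15 coding bases on either side of a junction, with capitals after it, from GENCODE transcripts on GRCh38.
MCL1 long form, entry to the skipped exon: agacggccttccaagGCATGCTTCGGAAAC
MCL1 long form, exit from the skipped exon: aaacaaagaggctggGATGGGTTTGTGGAG
MCL1 short form, joined: agacggccttccaagGATGGGTTTGTGGAG
BCL2L1 long form, entry to the skipped part: cagagctttgaacagGTAGTGAATGAACTC
BCL2L1 long form, exit from the skipped part: gagaacggcggctggGATACTTTTGTGGAA
BCL2L1 short form, joined: cagagctttgaacagGATACTTTTGTGGAA
The bases left out of the short form numbered 248 in MCL1 (chr1:150578244-150578491, minus strand) and 189 in BCL2L1 (chr20:31721655-31721843, minus strand), in both cases within the coding sequence.

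MCL1 transcripts were the most abundant of the 10 and were fewer in M5_O5, while PMAIP1, BCL2A1, BAX and BBC3 were higher. All 5 differences were under 2-fold. Of the 9 genes with enough counts to be tested, 4 were higher and 1 was lower at an adjusted p under 0.05 (edgeR's quasi-likelihood test, Benjamini-Hochberg over 12434 genes), and 4, namely BCL2L1, BAK1, BIRC2 and BIRC3, did not pass. Over all genes tested, 19.5% were higher, 17.6% lower and 37.1% one or the other, so a call was common in this comparison. By library size alone or with limma on TPM, 79.3% to 81.1% of called genes were higher, against 52.5% here. None of the 9 reached a 2-fold difference as well, against 3.2% of all genes tested. In 4 members the groups did not overlap in CPM, against 33.6% of all genes tested. The median log2 difference of the 9 was 0.07, beside 0.01 for all genes tested. In bulk RNA, fewer cells of a type and less RNA per cell cannot be told apart.

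**Figure D1:**
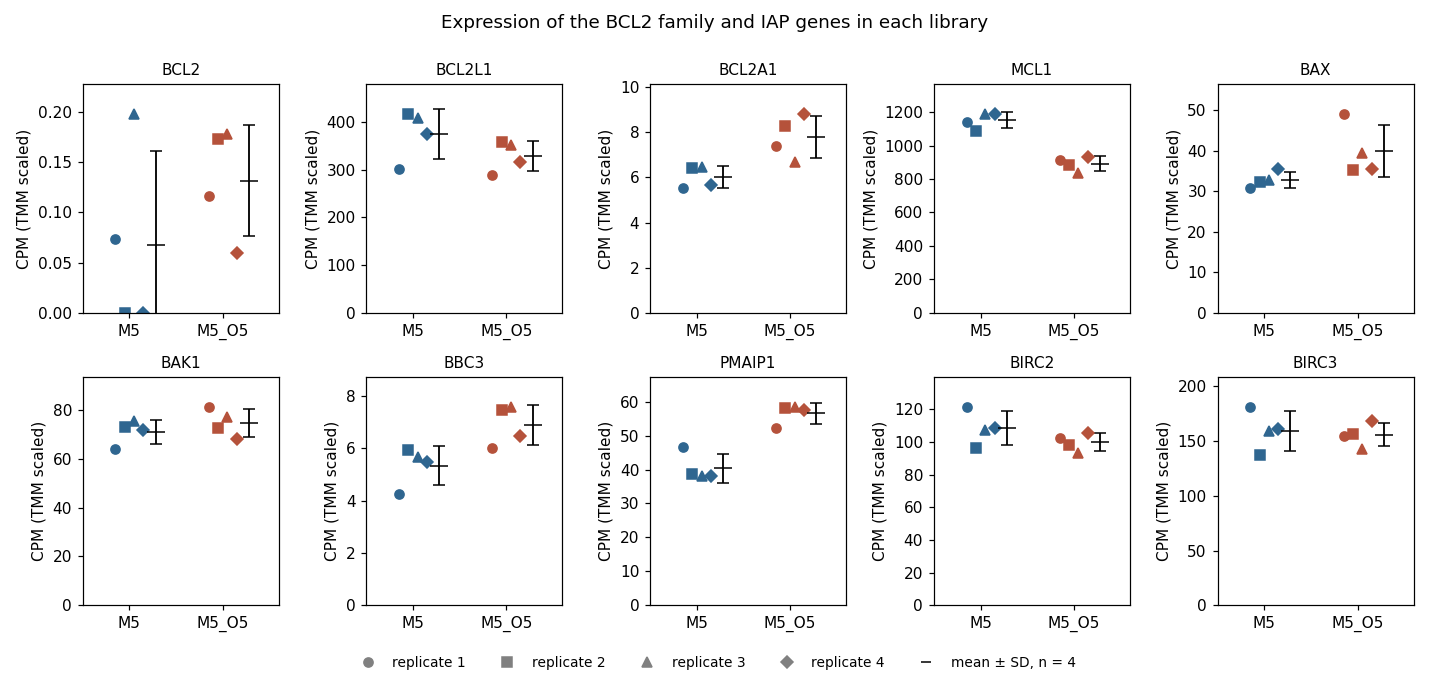
Level of each of the 10 genes in every library, in TMM-scaled CPM on a linear axis from 0, with replicates as separate symbols and the mean ± SD of 4 libraries beside them. PMAIP1, BCL2A1 and BBC3 lie higher in M5_O5 and MCL1 lower, with no overlap between groups, whereas BCL2 rests on at most 3 counts per library.

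Compared per length, in TPM, which divides counts by transcript length and library size, MCL1 stood first in both groups at 402 ± 33.3 TPM (SD, n = 4) in M5_O5 and 476 ± 38.8 in M5. BCL2L1 followed at 243 ± 14.4 and 252 ± 21.0 TPM. BAX came next, at 115 ± 22.6 TPM in M5_O5 and 84.8 ± 6.43 in M5, followed by BAK1 at 65.5 ± 6.23 and 57.1 ± 1.88. BIRC2, PMAIP1 and BIRC3 formed a middle tier in which neighbours could not always be separated. The ranges of BIRC2 and PMAIP1 overlapped in M5_O5, and in M5 those of BAK1 and BIRC2, of BIRC2 and BIRC3, and of BIRC3 and PMAIP1 overlapped. BCL2A1 and BBC3 were the lowest of the tested genes, at 27.6 ± 3.67 and 9.01 ± 1.12 TPM in M5_O5 and 19.4 ± 0.73 and 6.38 ± 0.58 in M5. Of the summed TPM of the 4 prosurvival genes, MCL1 gave 59.7% ± 3.11 (SD, n = 4) in M5_O5 and 63.6% ± 3.45 in M5, with overlapping ranges.

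Among the prosurvival genes, MCL1, whose short-lived protein protects keratinocytes and many other cells, had 917, 882, 834 and 933 CPM in the M5_O5 libraries and 1139, 1088, 1187 and 1187 CPM in the M5 libraries. In CPM every M5_O5 library was below every M5 library. In TPM the groups overlapped, with M5_O5 replicate 1 at 432 TPM and M5 replicate 2 at 423. The log2 difference was -0.37 (SE 0.058, adjusted p = 0.00027), a level 0.775 times that of M5, and it passed under all 17 alternative settings. It was smaller with a trend on expression level removed, at -0.19, and with limma on TPM, at -0.24.

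BCL2A1, which encodes the NF-κB-responsive protein BFL-1, had 7.38, 8.27, 6.70 and 8.79 CPM in M5_O5 and 5.55, 6.40, 6.45 and 5.67 CPM in M5. The groups were separate, but M5_O5 replicate 3 lay only just above the highest M5 library. The log2 difference was 0.37 (SE 0.12, adjusted p = 0.0251), or 1.29-fold. It did not pass without M5_O5 replicate 2 (adjusted p = 0.0673), M5_O5 replicate 4 (0.0814) or M5 replicate 4 (0.0747), nor with a trend on expression level removed, where the log2 difference was 0.19 (adjusted p = 0.256).

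BCL2L1, the gene of BCL-xL and the main partner of MCL1 in guarding epithelial cells, had 290, 358, 351 and 316 CPM in M5_O5 and 301, 416, 408 and 375 in M5. Only M5 replicate 1 fell among the M5_O5 libraries. The log2 difference was -0.19 with a 95% confidence interval of -0.39 to 0.01 (adjusted p = 0.126). Without M5 replicate 1 it was -0.28 and passed (adjusted p = 0.00391). Without M5_O5 replicate 1, the lowest library, it was -0.14 and did not pass (adjusted p = 0.29). With a trend on expression level removed it was -0.046 (adjusted p = 0.7).

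BCL2 itself, the founding member of the family, was barely detected, with 2, 3, 3 and 1 counts in M5_O5 and 1, 0, 3 and 0 in M5. All of these are at or under 3 counts, the upper limit that a count of 0 allows, which corresponds to 0.172 to 0.219 CPM per library. No fold or test is given, and any difference was not detectable at this depth.

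Of the effectors, BAX had 48.9, 35.3, 39.4 and 35.5 CPM in M5_O5 and 30.7, 32.3, 32.8 and 35.4 CPM in M5. M5_O5 replicate 1 was far above the rest, and M5_O5 replicate 2 lay below M5 replicate 4. The log2 difference was 0.28 (SE 0.096, adjusted p = 0.0354), or 1.21-fold, and a two-sided exact permutation test on CPM gave p = 0.0571. Without M5_O5 replicate 1 the log2 difference was 0.16 (adjusted p = 0.0953), and the call was also lost without M5_O5 replicate 3 (0.0597) or M5 replicate 1 (0.0557), 2 (0.0728) or 3 (0.0755).

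BAK1, the other pore-forming protein, lay between 68.0 and 81.3 CPM in M5_O5 and between 63.9 and 75.6 in M5. These ranges overlapped, and the log2 difference was 0.07 with a 95% confidence interval of -0.07 to 0.22 (adjusted p = 0.429). Without M5 replicate 1 it was 0.025 (adjusted p = 0.774). Scaled by library size alone it was 0.19 and passed (adjusted p = 0.0365).

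Both BH3-only genes were higher in M5_O5. PMAIP1 had 52.1, 58.0, 58.6 and 57.4 CPM in M5_O5 and 46.6, 38.6, 38.1 and 38.1 CPM in M5. All M5_O5 libraries exceeded all M5 libraries, and M5 replicate 1 was the M5 library closest to them. The log2 difference was 0.49 (SE 0.074, adjusted p = 0.000192), or 1.40-fold, and it passed under all 17 alternative settings. Without M5 replicate 1 it was 0.56 (adjusted p = 4.8e-06).

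BBC3 had 5.99, 7.47, 7.59 and 6.48 CPM in M5_O5 and 4.23, 5.94, 5.66 and 5.48 CPM in M5. The groups were separate, but M5_O5 replicate 1 lay only just above M5 replicate 2. The log2 difference was 0.36 (SE 0.13, adjusted p = 0.044), or 1.29-fold. This call was lost under 10 of 17 alternative settings, among them DESeq2 (adjusted p = 0.0727), no filter on low counts (0.0512), DESeq2 size factors in edgeR (0.0541) and a trend on expression level removed (log2 difference 0.17, adjusted p = 0.375). It was also lost without M5_O5 replicate 2 (0.114), 3 (0.119) or 4 (0.0592) and without M5 replicate 1 (0.088), 3 (0.0672) or 4 (0.081).

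Neither IAP member passed the test. BIRC2 lay between 93.2 and 106 CPM in M5_O5 and between 96.1 and 122 CPM in M5, with a log2 difference of -0.12 (95% confidence interval -0.26 to 0.03, adjusted p = 0.207), or -0.058 without M5 replicate 1 (adjusted p = 0.468). BIRC3, with the κB matches shown above, lay between 143 and 168 CPM in M5_O5 and between 137 and 181 CPM in M5. Its log2 difference was -0.03 (95% confidence interval -0.20 to 0.13, adjusted p = 0.75) and its sign changed with the scaling, to 0.078 by library size alone and 0.031 without M5 replicate 1. For both genes the highest library of all was M5 replicate 1.

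The ratio of 2 genes within a library does not depend on library scaling and is given in TPM as a description. PMAIP1 was 11.2%, 13.6%, 14.2% and 12.1% of MCL1 in the M5_O5 libraries and 7.85%, 7.24%, 6.44% and 6.37% in the M5 libraries. The means were 12.8% ± 1.37 (SD, n = 4) and 6.98% ± 0.71, and M5 replicate 1 was again the M5 library nearest to M5_O5. BCL2A1 was 6.86% ± 0.78 of MCL1 in M5_O5 and 4.10% ± 0.39 in M5, also without overlap. BAX was 48.0% ± 12.4 of BCL2L1 in M5_O5 and 33.9% ± 4.73 in M5, where the lowest M5_O5 library, at 39.2%, only just cleared the highest M5 library, at 38.8%. Replicate 1, at 66.3%, raised the M5_O5 mean, with the other M5_O5 libraries at 39.2% to 43.8%. BIRC3 was 76.1% ± 1.77 of BIRC2 in M5_O5 and 71.8% ± 1.59 in M5, with overlapping ranges. BAK1 relative to BAX was lower in M5_O5, at 57.6% ± 5.30 against 67.7% ± 5.30. These groups nearly touched, with the highest M5_O5 library at 61.43% and the lowest M5 library at 61.45%.

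**Figure D2:**
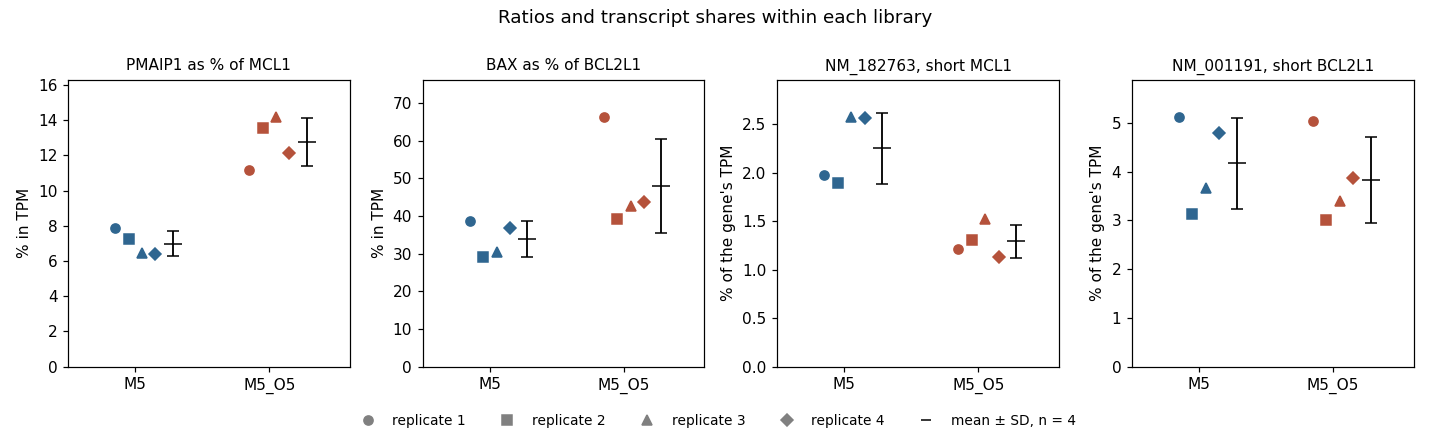
From left to right, PMAIP1 as a percentage of MCL1, BAX as a percentage of BCL2L1, and the short transcripts of MCL1 and BCL2L1 as percentages of their gene, all in TPM, by library with the mean ± SD of 4. The PMAIP1 ratio is above 11% in every M5_O5 library and below 8% in every M5 library, the short MCL1 share is lower in all M5_O5 libraries, and the short BCL2L1 share overlaps between groups.

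The 10 genes had 46 transcripts in the table, whose levels are estimates because transcripts of a gene share reads. Tests were run on genes with at least 2 transcripts that each held a mean of at least 5% of the gene, which left out genes with 1 dominant transcript such as MCL1. For these 15 transcripts of 6 genes, 1 share, that of NM_001188 in BAK1 (86.3% ± 2.05 in M5_O5 and 89.6% ± 0.50 in M5), reached the smallest p that 4 against 4 libraries allow in a two-sided exact permutation test, 0.0286. After Benjamini-Hochberg adjustment over the 15, none was under 0.05 and the smallest value was 0.214, although with 1 share at that smallest p the design could not have given an adjusted value under 0.05. The MCL1 and BCL2L1 short forms, shown above by their junctions, were too rare for this set and were looked at after their values were seen. NM_182763, the short MCL1 form, made up 1.22%, 1.30%, 1.52% and 1.13% of MCL1 in M5_O5 and 1.97%, 1.90%, 2.57% and 2.57% in M5. The groups were separate, at 1.29% ± 0.17 and 2.25% ± 0.37, and the exact permutation p was again the smallest possible, 0.0286. Adjusted over the 36 transcripts with at least 1% of their gene it was 0.206, and with 5 of the 36 at that p the design could not have given an adjusted value under 0.05. NM_001191, the BCL-xS form, made up 3.83% ± 0.89 and 4.18% ± 0.93 of BCL2L1, with overlapping ranges.

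Around these 10 genes, 61 further genes of the pathway were listed, of which 57 could be tested. Of these, 8 were higher, 22 were lower and 27 did not pass, with a median log2 difference of -0.10 beside 0.01 for all genes tested, of which 19.5% were higher and 17.6% lower. Genes lower in M5_O5 fell to 10 when libraries were scaled by size alone, which moved the median of all genes to 0.13, to 11 with a trend on expression level removed, and to 6 with limma on TPM at either pseudocount. BCL2L14, BIRC7 and TNFRSF10C were too low to test, and FASLG had no row in the table.

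Of the prosurvival relatives, 1 of 2 tested was lower, BCL2L2, the gene of BCL-w (log2 difference -0.19, adjusted p = 0.0155), whose counts are uncertain because a readthrough transcript shares its exons and which passed in 13 of 18 settings. Of 3 tested multidomain relatives, 1 was higher, BCL2L13 (0.17, adjusted p = 0.0317), whose groups overlapped and which passed in 12 of 18 settings, and none was lower. Among 8 BH3-only genes, 3 were lower and 1 was higher. BCL2L11, the gene of the potent activator BIM, stood at 49.2 ± 3.77 CPM (SD, n = 4) in M5_O5 and 76.8 ± 7.14 in M5, a log2 difference of -0.64 (SE 0.075, adjusted p = 2.5e-05). BMF, a BH3-only gene linked to loss of cell attachment, was lower too, with a log2 difference of -0.63 (SE 0.076, adjusted p = 3.16e-05). Both passed under every setting and moved opposite to PMAIP1, whereas BID, which links death receptors to mitochondria, was higher by 0.26 on the log2 scale (adjusted p = 0.00737). The last of the 3 lower genes, BNIP3L, a mitophagy receptor, was outside the naming rule and was added after its value was seen (-0.26, adjusted p = 0.0021). BNIP3L passed in 15 of 18 settings.

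**Figure D3:**
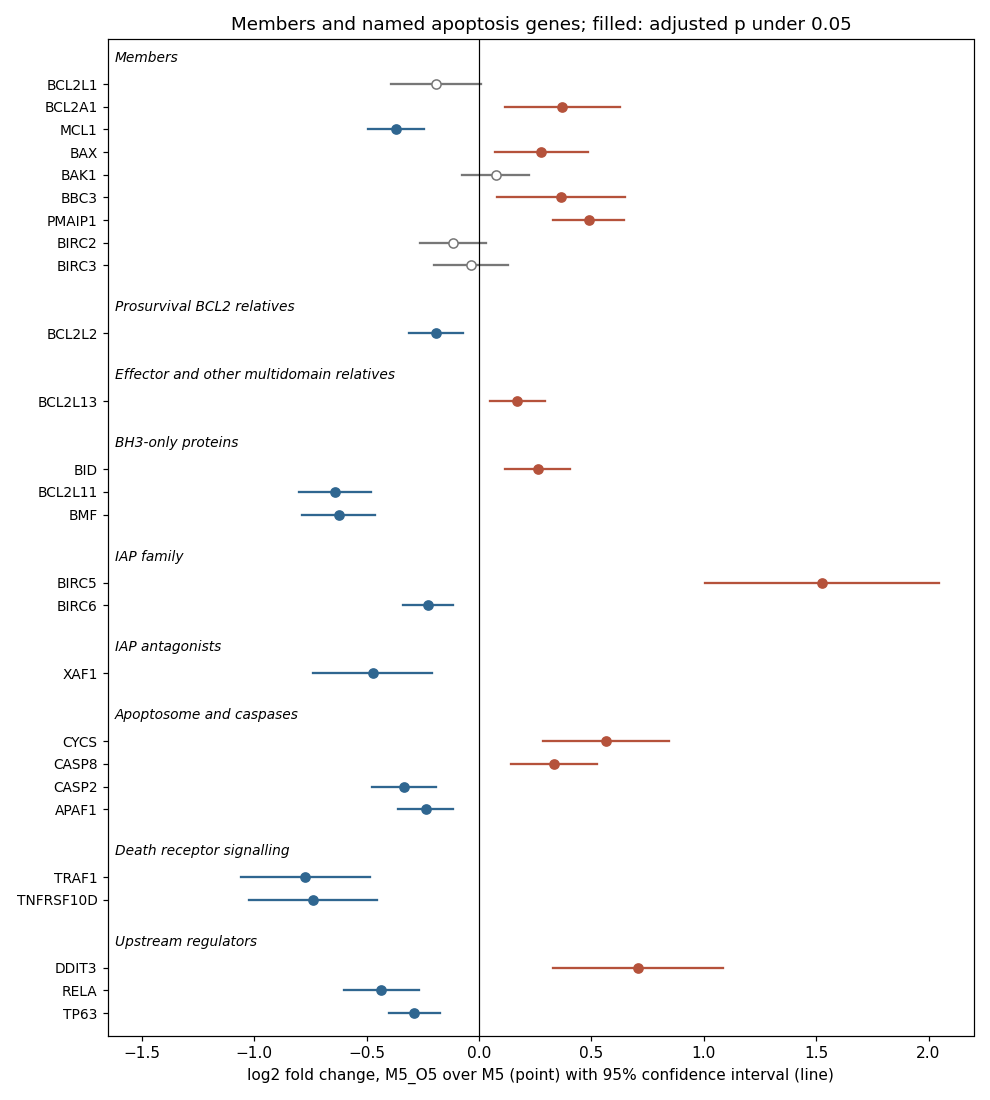
Log2 difference of M5_O5 over M5 (point) with its 95% confidence interval (line) for the 9 tested members and for the named genes of 8 apoptosis lists, filled and coloured where the adjusted p was under 0.05. PMAIP1 and MCL1 lie on opposite sides of 0, BCL2L11 and BMF lie near -0.6, and BIRC5, a mitotic gene, is the furthest from 0 at 1.53.

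Of the other IAP genes, 4 were tested, with 1 higher and 1 lower. BIRC5, the gene of survivin, which also serves chromosome segregation in mitosis, had 5.81, 5.92, 4.80 and 6.24 CPM in M5_O5 and 3.58, 1.18, 1.84 and 1.43 CPM in M5. Its log2 difference of 1.53 (SE 0.24, adjusted p = 0.000288) was the only one of the 57 to reach 2-fold. It moved with the proliferation genes, M5 replicate 1 included, and their part in this result was not tested. BIRC6, a very large ubiquitin ligase, was lower (log2 difference -0.23, adjusted p = 0.00368) and passed in 14 of 18 settings, and of 3 IAP antagonists XAF1, an interferon-induced inhibitor of XIAP, was lower (-0.47, adjusted p = 0.00822), passing in 16.

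Of 9 apoptosome and caspase genes, 2 were higher and 2 were lower. CYCS, the gene of cytochrome c, was higher by 0.56 on the log2 scale (adjusted p = 0.00404). It has many processed copies in the genome that can share reads. Its groups overlapped, with M5 replicate 1, at 112 CPM, within the M5_O5 range of 108 to 155. CASP8, the initiator caspase of death receptors, was higher by 0.33 (adjusted p = 0.009). CASP2 and APAF1, the scaffold of the apoptosome, differed by -0.33 (adjusted p = 0.00154) and -0.24 (adjusted p = 0.00506), and passed in 16 and 15 of 18 settings. Among 14 death receptor genes none was higher and 7 were lower, beside 19.5% and 17.6% of all genes tested. TRAF1, an NF-κB-induced adaptor that binds cIAP1 and cIAP2, was lower (log2 difference -0.77, adjusted p = 0.00054), as was the decoy TRAIL receptor TNFRSF10D (-0.74, adjusted p = 0.000712). These passed under all 18 settings, whereas each of the remaining lower genes lost the call under at least 2.

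Of 14 upstream regulators, 3 were higher and 7 were lower. DDIT3, a factor of the endoplasmic reticulum stress response, was higher by 0.71 on the log2 scale (adjusted p = 0.00633), although M5_O5 replicate 1, at 22.3 CPM, lay within the M5 range of 21.7 to 27.0 and below the other M5_O5 libraries. RELA, the p65 subunit of NF-κB, was lower (-0.43, adjusted p = 0.000656), as was TP63, the lineage factor of basal keratinocytes (-0.29, adjusted p = 0.000834). RELA passed in all 18 settings and TP63 in 17. Others that passed were named after their values were seen. TRIB3, a target of DDIT3, was higher by 0.63, and MDM2 (-0.33), STAT3 (-0.21) and the NF-κB genes RELB (-0.22), NFKB1 (-0.19) and NFKB2 (-0.21) were lower. TRIB3 passed in all 18 settings, but M5_O5 replicate 1, at 55.6 CPM, lay within the M5 range of 44.6 to 62.5. MDM2, STAT3 and NFKB1 each passed in 14 of 18 settings, RELB in 8 and NFKB2 in 7. The groups overlapped in CPM for MDM2, RELB and NFKB2.

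**Figure D4:**
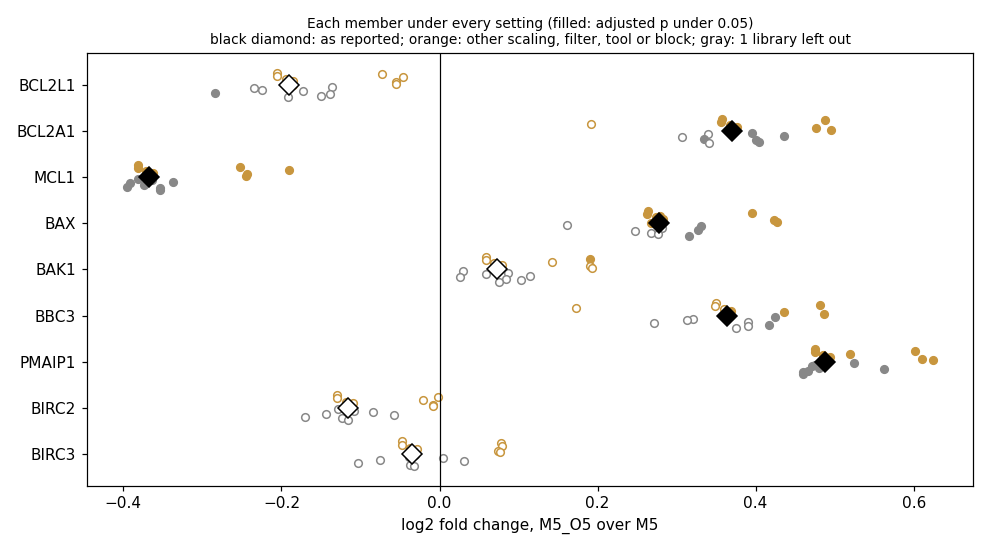
Log2 difference of each tested member under the reported setting (black diamond) and 17 alternatives, orange for another scaling, filter, tool or block and gray for 1 library left out, filled where the adjusted p was under 0.05. PMAIP1 and MCL1 are filled throughout, BBC3, BAX and BCL2A1 lose the call under 10, 5 and 4 alternatives, and BIRC3 lies on both sides of 0.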

How the data were processed

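RNA of 8 HaCaT libraries was sequenced. Per the study's methods, reads were aligned by HISAT2 and quantified by StringTie. For each RefSeq transcript the authors deposited an estimated count, which is not normalized, and a TPM value. The submitters' notes name HISAT2 2.1.0, Bowtie2 2.2.5, RSEM 1.2.8 and the mouse build mm10, although the rows are human genes, and the human build is not given in the sources used here. The deposited FPKM values, the authors' group means and their own comparisons were not used.

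Counts of 86639 transcript rows, 53.8% of them fractional, were summed to 17131 genes and rounded. edgeR 4.0.16 (R 4.3.3) kept 12434 genes by filterByExpr, scaled by TMM, and applied the quasi-likelihood test with Benjamini-Hochberg adjustment at 0.05. Totals of 13708046 to 16922673 counts set the precision, and floors cover counting error only. On simulated counts for 12434 genes, 188 of 200 planted changes were recovered and 15 unchanged genes were called. Every planted change was larger than the differences of the called members, so this recovery says nothing of differences as small as theirs. Alternatives used DESeq2 1.42.0, other scalings and filters, limma 3.58.1 on log2(TPM + 1) and log2(TPM + 0.1), a replicate block and each library left out. The members and lists were chosen with earlier results of these data known. The genes named were the members, PBK and, in each list, those at 2-fold plus the 2 smallest adjusted p in each direction. One gene that the rule names is not reported here.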

Additional observations from a re-analysis of the deposited data

Results flagged for a closer look

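Within groups of 4 libraries, 4 of 64 sets of values held a library far from its group, where chance gives about 1 in 20, or 3.2. In M5, PMAIP1 stood at 46.6 CPM in replicate 1 and at 38.1 to 38.6 CPM in the other 3 libraries. The mean log2(CPM + 1) of the proliferation genes was 3.42 in M5 replicate 1 and 2.56 to 2.65 in the other 3. The share of transcript NM_001256163 in BIRC2 was 2.18% in M5 replicate 2 and 6.44% to 7.21% in the others. The share of NM_001188 in BAK1 was 90.3% in M5 replicate 2 and 89.2% to 89.4% in the others.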

How the results depend on the processing

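PMAIP1 and MCL1 kept direction and call under all 17 alternatives, with adjusted p of at most 0.00152 and 0.0314 in the respective fits of edgeR, DESeq2 or limma. Higher members numbered 3 with DESeq2, with its size factors in edgeR and with no filter, 5 with library size as the only scaling, 2 with the expression trend removed and 2 to 3 with 1 library left out. Lower members numbered 2 with the replicate block and 1 to 2 with 1 library left out. BIRC3 changed sign to 0.078 with library size alone, 0.079 with the trend removed, and 0.075 and 0.076 with limma at the larger and smaller pseudocount, and ranged from -0.10 to 0.03 with 1 library left out, being above 0 without M5_O5 replicate 3 (0.0046) or M5 replicate 1 (0.031). Library size alone gave 3858 genes higher, 1008 lower and 25 lower at 2-fold and 10 pathway genes lower. With the trend removed there were 215 genes higher and 90 lower at 2-fold, and 11 pathway genes lower. No filter gave 71 lower at 2-fold. Limma on log2(TPM + 1) and log2(TPM + 0.1) gave 761 and 768 genes lower, 8 and 18 lower at 2-fold, 144 higher at 2-fold for the first, and 6 pathway genes lower for both. The cause of these shifts was not tested. With 1 library left out, genes higher ranged from 1900 to 2874, genes lower from 1674 to 2503, 2-fold higher from 334 to 465, 2-fold lower from 41 to 52, and pathway genes from 7 to 10 higher and 19 to 22 lower. The replicate numbers did not pair the libraries: same-number correlations of deviations were 0.21, 0.099, -0.0036 and 0.013, and 3 of 8 libraries correlated best with their own number. With the replicate block 2702 genes were higher and 2552 lower, members were 4 higher and 2 lower, and BCL2L1 passed (-0.18, adjusted p = 0.00729). Transcript shares had 0 adjusted p under 0.05 at either minimum share. Depth limits BCL2, at 3 counts or fewer.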
